A study of Mus musculus with 24 samples.

Results

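The aryl hydrocarbon receptor Ahr, its repressor Ahrr and 8 cytochrome P450 genes (Cyp1a1, Cyp1b1, Cyp2e1, Cyp2c55, Cyp2s1, Cyp2d26, Cyp4b1 and Cyp3a13) were followed in mouse colon. They were found through the RefSeq accession that the array gives for each probe, which led to 14 probes for these 10 genes among 56605 probes and 45616 gene names. Total colon RNA of C57BL/6J mice was hybridised to 1-colour Agilent arrays. The methods name the distal colon, less a piece taken for histology, as the tissue for the arrays. M are males, F are females with ovaries and F(OVX) are ovariectomized females, and each was fed LFD or HFD, which gives 6 groups of 4 arrays. By the methods, M and F had sham surgery. LFD is a low fat diet with 10 kcal% fat and HFD a high fat diet with 45 kcal% fat, fed for 14 weeks. The mice were 7 weeks old when obtained. All the groups, those on LFD included, belong to a colon tumor model with 1 dose of azoxymethane (10 mg/kg) and 3 cycles of 1.5% dextran sulfate sodium, and colons were taken 75 days after azoxymethane. No group without azoxymethane and dextran sulfate sodium was analysed here, so the data compare diets, sexes and surgery within the tumor model. The methods name 5 animals per group, chosen for a body weight near the group average, and 4 arrays per group carry labels.

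Ahr is a ligand-activated transcription factor that senses dietary indoles, tryptophan metabolites from bacteria and aromatic pollutants. It enters the nucleus with its partner Arnt and binds a short DNA core, from which it drives Cyp1a1 and Cyp1b1 as well as Ahrr, the repressor that closes the loop. Cytochrome P450 enzymes are haem monooxygenases that take electrons from the reductase Por and oxidise drugs, fatty acids, steroids and carcinogens. Cyp2e1 is known for the oxidation of ethanol and of azoxymethane, the carcinogen of this model, to methylazoxymethanol. Cyp2c55 is an arachidonic acid hydroxylase of the large bowel, Cyp2s1 is an epithelial P450, Cyp4b1 acts on fatty acids and Cyp3a13 is a mouse member of the drug-metabolising Cyp3a family.

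The RefSeq promoter table (GRCm38.p6) held 9 of the 10 genes, each with 250 bases before and 50 bases after the start. The core bound by Ahr and Arnt, GCGTG on either strand, was present in the promoters of Cyp1a1, Cyp1b1 and Ahrr and in none of the other 6, against 32.4% of all 32851 promoters of that length. Ahrr held 3 matches, and Cyp1a1 and Cyp1b1 held 1 each, the latter on the opposite strand, where it reads CACGC. The nuclear receptor half-site AGGTCA on either strand was in none of the 9, against 16.3% of all promoters. A match is a run of letters, not evidence of binding. The 3 promoters with the core are shown because their genes are the classical Ahr targets among the members. That of Cyp2c55, which had the largest difference by diet in M among the 10 genes, is shown beside them. Capitals mark the core, and each runs 5′ to 3′ in the direction of its gene.
Cyp1a1, chr9:57697363-57697662, plus strand: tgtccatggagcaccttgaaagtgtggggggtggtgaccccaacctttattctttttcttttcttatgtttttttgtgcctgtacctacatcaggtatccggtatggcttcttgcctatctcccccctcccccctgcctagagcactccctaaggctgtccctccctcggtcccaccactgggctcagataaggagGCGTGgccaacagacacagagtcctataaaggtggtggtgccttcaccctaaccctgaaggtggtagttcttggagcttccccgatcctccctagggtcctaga
Cyp1b1, chr17:79715012-79715311, minus strand: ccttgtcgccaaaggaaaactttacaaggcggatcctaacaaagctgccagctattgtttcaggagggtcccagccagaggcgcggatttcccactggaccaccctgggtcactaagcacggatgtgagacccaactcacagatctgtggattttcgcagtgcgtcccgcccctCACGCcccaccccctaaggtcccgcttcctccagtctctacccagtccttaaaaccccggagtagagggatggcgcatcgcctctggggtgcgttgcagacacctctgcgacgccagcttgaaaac
Ahrr, chr13:74292282-74292581, minus strand: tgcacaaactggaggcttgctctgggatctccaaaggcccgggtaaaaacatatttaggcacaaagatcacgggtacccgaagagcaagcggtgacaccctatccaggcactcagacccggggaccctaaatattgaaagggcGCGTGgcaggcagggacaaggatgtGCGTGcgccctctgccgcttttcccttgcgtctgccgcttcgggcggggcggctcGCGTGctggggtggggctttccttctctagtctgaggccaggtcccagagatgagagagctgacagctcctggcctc
Cyp2c55, chr19:39006769-39007068, plus strand: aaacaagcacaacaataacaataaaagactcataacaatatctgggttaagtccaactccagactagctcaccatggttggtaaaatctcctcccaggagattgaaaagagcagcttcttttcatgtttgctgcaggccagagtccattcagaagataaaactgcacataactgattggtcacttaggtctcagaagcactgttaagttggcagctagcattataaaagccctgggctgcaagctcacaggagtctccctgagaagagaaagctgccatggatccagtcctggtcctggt

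The level used below is the log2 signal of a gene's brightest probe after quantile normalization over the 24 arrays, and a difference of 1 on this scale is a factor of 2. Levels of different probes are not set against each other. A probe was called well above background where the scanner software marked it so. Between 40.5% and 61.9% of probes carried that mark on an array. M + LFD replicates 1 and 2 stood apart from the other 22 arrays in the 4 distal colon Hox genes, which mark the lower end of the bowel. The mean level of that list was 2.07 and 3.84 on those arrays and between 6.85 and 10.64 on the others, with 0 and 2 of its 4 genes well above background. Hoxb13 stood at 2.18 and 5.04 there and at 13.24 and 13.66 in M + LFD replicates 3 and 4. Genes of absorptive colonocytes were at the same time high, with a list mean of 13.22 and 13.50 on these arrays against 10.71 and 11.55 on M + LFD replicates 3 and 4. All 9 epithelial markers were well above background on every array, with a list mean between 13.95 and 14.70. Of 7 hepatocyte markers, 2 or 3 were well above background on an array. Ttr and Serpina1a were so on all 24 arrays, Alb on 15, Apoa1 on 1, and Fga, Fgb and Ahsg on none. The arrays of M, F and F(OVX) each filled a slide of their own, and on each slide LFD and HFD filled different rows, so slide and sex or surgery, and row and diet, cannot be told apart. In whole tissue, fewer cells of a type and less RNA per cell cannot be told apart either.

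**Figure D1:**
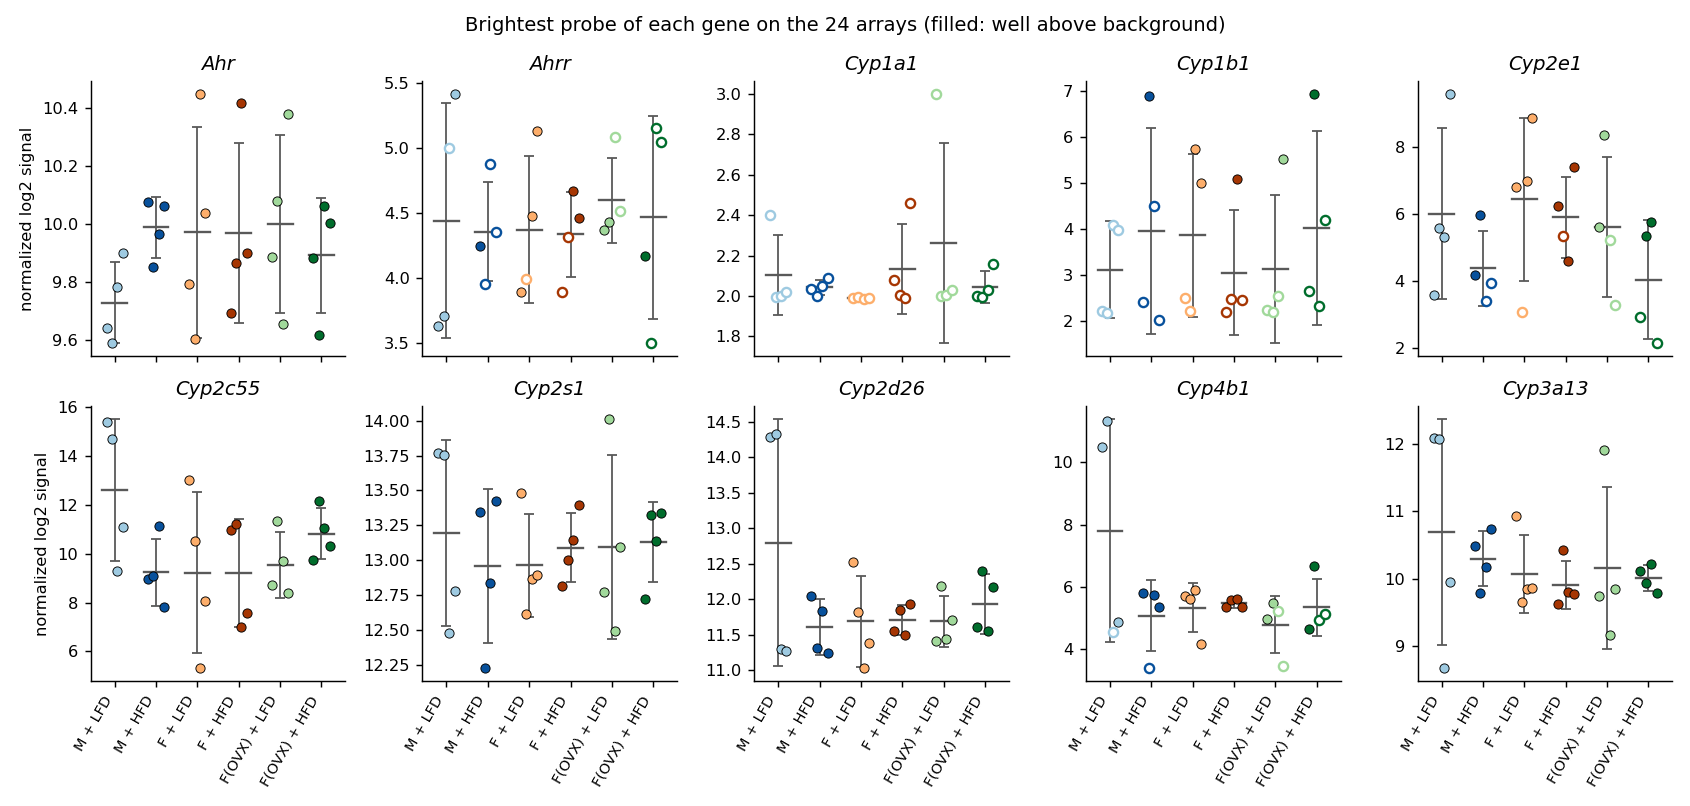
Normalized log2 signal (vertical axes, a scale of its own in each panel) of the brightest probe of the 10 genes on each of the 24 arrays, by group. Filled points were well above background and open points were not; lines and bars are the mean and SD of 4 arrays. Cyp1a1 has open points on all arrays, and 2 of the 4 M + LFD arrays sit far above the rest of their group for Cyp2c55, Cyp2d26, Cyp4b1 and Cyp3a13.

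The receptor was expressed evenly, and its classical target Cyp1a1 was not detected. Ahr was well above background on all 24 arrays, at 9.59 to 10.45. In M + LFD it stood at 9.64, 9.59, 9.78 and 9.90, and in M + HFD at 10.08, 9.85, 9.97 and 10.06. The M + HFD arrays were higher except for 1 overlap, and the difference of 0.26 (SE 0.13) did not pass the threshold (limma, adjusted p = 0.824; exact permutation test over 70 assignments, two-sided p = 0.0571). In F the means were 9.97 ± 0.37 on LFD and 9.97 ± 0.31 on HFD (SD, n = 4), and in F(OVX) the difference was -0.11 (SE 0.19). Neither difference exceeded the spread between arrays.

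Cyp1a1 was well above background on 0 of 24 arrays. Its signal stayed between 1.99 and 2.46 on every array except F(OVX) + LFD replicate 1, which gave 3.001. These are readings at the floor of the array, so no fold is given, and a change below detection cannot be seen here. Cyp1a2, the other Cyp1a gene, was likewise well above background on no array.

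Cyp1b1, which oxidises steroids and aromatic compounds outside the liver, was well above background on 6 of 24 arrays, at most 2 in a group. Those 6 arrays gave 6.89 in M + HFD replicate 2, 5.73 and 5.001 in F + LFD replicates 3 and 4, 5.08 in F + HFD replicate 3, 5.52 in F(OVX) + LFD replicate 4 and 6.94 in F(OVX) + HFD replicate 2. The high arrays were single ones spread over both diets, and the gene was tested in no comparison. In M the difference of means was 0.84 with all arrays and -0.13 without M + HFD replicate 2, so no direction is given.

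Ahrr was well above background on 12 of 24 arrays by its brighter probe and on none by its second probe. Its levels were 3.63, 3.71, 4.996 and 5.42 in M + LFD, 4.25, 3.96, 4.87 and 4.36 in M + HFD, and between 3.50 and 5.15 in the female and ovariectomized groups. The group means lay between 4.34 and 4.60, with SDs of 0.33 to 0.90, so the groups overlapped throughout. Planned relations of Cyp1a1 with Ahrr and with Cyp1b1 across arrays were not read, since Cyp1a1 was at background; the sign of both changed with the scaling of the arrays.

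Cyp2c55 varied more than any other member within groups, and it was the 1 member called between the diets. A gene is called here, as in the methods of the study, at a fold change of 1.5 or more with an unadjusted p under 0.05. In M + LFD it stood at 15.41, 14.70, 9.29 and 11.11, and in M + HFD at 8.97, 9.08, 11.12 and 7.81. M + LFD replicates 1 and 2 were above all M + HFD arrays, while replicates 3 and 4 lay within their range. The mean was 12.63 ± 2.92 in M + LFD and 9.24 ± 1.38 in M + HFD (SD, n = 4), a difference of -3.38 (SE 1.36), or 10.4-fold lower in M + HFD (limma, adjusted p = 0.800). With the methods' own test in place of limma, or without the filter on dim probes, the same difference was not called. The exact permutation test gave p = 0.0857 (two-sided), where 0.0286 is the smallest it can give. The second probe gave -3.39 (SE 1.32) and followed the first closely, with r = 0.995 over 24 arrays. Of the 6 members tested in M, 1 was called, against 4.30% of all 20516 genes tested, and 0 had groups that did not overlap, against 2.60% of all genes. No gene passed an adjusted p of 0.05 in any diet comparison.

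The call was lost without the pair of M + LFD arrays that also stood apart in the distal Hox genes. Without both, the mean of M + LFD was 10.20 and the difference was -0.95 (SE 0.93, limma, adjusted p = 0.9996), no longer called. Leaving out either alone gave -2.45 and -2.69, also past the threshold in neither case, and leaving out M + HFD replicate 1, 2 or 4 (-3.29, -3.32 and -2.90) ended the call as well. With the distal Hox mean as a covariate the difference was -0.20. That mean was 5.26 in M + LFD and 8.82 in M + HFD, so this fit cannot tell diet and Hox level apart.

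**Figure D2:**
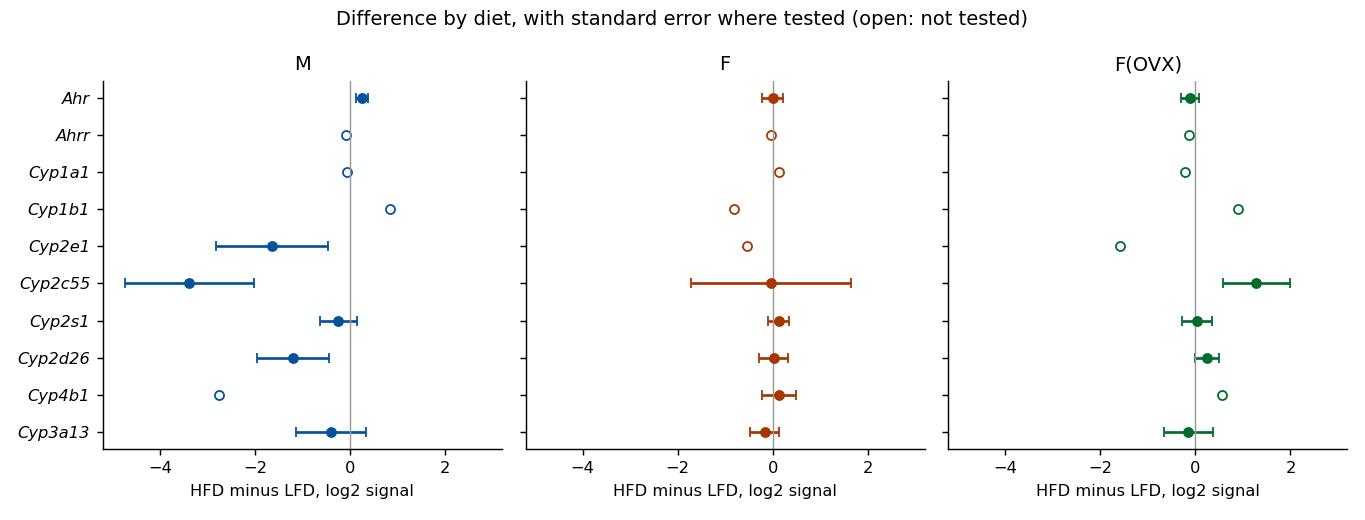
Difference in log2 signal between HFD and LFD (horizontal axis; left of 0 is lower in HFD) for the 10 genes in M, F and F(OVX). Filled points were tested and carry the standard error from limma; open points were not tested, because in each diet at least 1 of the 4 arrays was not well above background. Cyp2c55 in M (-3.38) is the 1 filled point past the threshold.

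In F and F(OVX) no member was called, among 6 and 5 tested, against 1.20% and 2.19% of all genes tested. Groups that did not overlap were found for 0 members in both, against 1.90% and 2.30% of all genes. Cyp2c55 stood at 13.02, 10.52, 5.30 and 8.06 in F + LFD and at 10.98, 11.22, 7.02 and 7.56 in F + HFD, a difference of -0.03 (SE 1.69). In F(OVX) + LFD it stood at 8.72, 11.36, 9.69 and 8.39 and in F(OVX) + HFD at 9.75, 12.16, 11.05 and 10.32, a difference of 1.28 (SE 0.70, limma, adjusted p = 0.9996; exact permutation test, p = 0.200). The F(OVX) + HFD values sat above their LFD counterparts on average but overlapped them. Same-numbered arrays deviated together in F (r = 0.23 to 0.51 over genes in the 4 pairs). With that number as a block 586 genes were called in F in place of 264, and no member was among them.

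The difference of Cyp2c55 by diet had opposite signs in M and F(OVX), and the difference between these diet effects was itself called. The effect in M minus that in F(OVX) was -4.66 (SE 2.07) for Cyp2c55 and -3.30 (SE 1.56) for Cyp4b1 (limma over 24 arrays, adjusted p = 0.641 and 0.664). These were 2 of 7 members tested, against 6.16% of 22383 genes. Cyp4b1 entered this fit only through F, where all 4 arrays of each group were well above background. In each M group 3 of 4 arrays were, and in each F(OVX) group 2 of 4. By diet it was tested in neither M nor F(OVX). Without M + LFD replicates 1 and 2 the values were -2.23 and -0.20, and neither was called. Leaving out 1 of the 16 arrays gave -5.77 to -3.73 for Cyp2c55 and -4.39 to -2.13 for Cyp4b1. The call of Cyp2c55 was lost without M + LFD 1 or 2, M + HFD 1, 2 or 4, F(OVX) + LFD 1 or 4 and F(OVX) + HFD 2 or 3, and that of Cyp4b1 without M + LFD 1 or 2, M + HFD 2 or 4, F(OVX) + LFD 1, 3 or 4 and F(OVX) + HFD 2, 3 or 4. The difference in diet effects was called for 0 of 7 members in M against F and in F(OVX) against F. The shares over all genes tested were 2.95% and 1.52%. In M against F it was -3.35 (SE 2.07) for Cyp2c55 and -2.89 (SE 1.56) for Cyp4b1, the same direction as in M against F(OVX).

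Across the 24 arrays Cyp2c55 was high where the distal Hox genes were low. Taken as deviations from group means, r was -0.66 and rho was -0.64 (permutation test, 100000 resamples, two-sided p = 0.00053 and 0.00092, adjusted over 4 relations 0.00106 and 0.00184). Without the 2 arrays farthest from the median of the Hox list, r was -0.58 (permutation p = 0.0053), and without M + LFD replicates 1 and 2 it was -0.50. Within slides r was -0.86 in M (exact permutation p = 0.00764, 8 arrays), -0.73 in F (exact permutation p = 0.0222, 8 arrays) and 0.20 in F(OVX) (exact permutation p = 0.634, 8 arrays). The relation was present in M and F and was not seen in F(OVX). The value in M includes M + LFD replicates 1 and 2. Hoxa13 and Hoxb13 were well above background on 23 arrays each, Hoxd13 on 17 and Hoxd12 on 6. Part of the spread of the list mean thus comes from genes at the floor of the array. The 5 genes most like Cyp2c55 in their deviations from group means were Ethe1 (r = 0.93), Ano10, Entpd5, Upk1a and Btnl1 (r = 0.90 each), of 11878 genes compared over 24 arrays. Only genes with a symbol and well above background on all 24 arrays were compared.

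**Figure D3:**
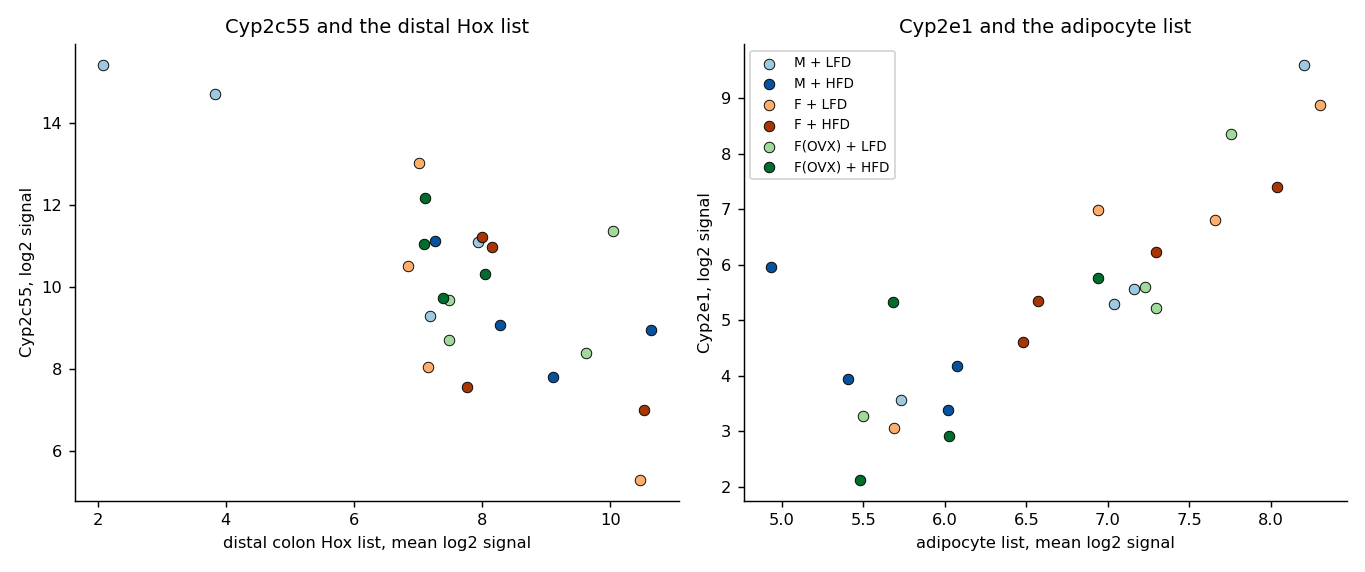
Left, log2 signal of Cyp2c55 against the mean log2 signal of 4 distal colon Hox genes; right, log2 signal of Cyp2e1 against the mean log2 signal of 9 adipocyte genes; each point is 1 of 24 arrays, coloured by group. M + LFD replicates 1 and 2 lie alone at the upper left of the Cyp2c55 panel (Hox means of 2.07 and 3.84), and Cyp2e1 rises with the adipocyte list.

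Cyp2d26, Cyp4b1 and Cyp3a13 were, like Cyp2c55, high on M + LFD replicates 1 and 2. Cyp2d26, a member of the Cyp2d cluster, stood at 14.29, 14.33, 11.30 and 11.27 in M + LFD and at 11.02 to 12.52 on the other 20 arrays. The difference by diet in M was -1.19 (SE 0.76, limma, adjusted p = 0.861; exact permutation test, p = 0.343), and it became 0.32 without the pair. Its second probe did not follow. That probe gave 11.86, 12.11, 9.64 and 11.24 in M + LFD, a difference of 0.42 (SE 0.48), and correlated with the first at r = 0.42 over 24 arrays, so the 2 probes of this gene disagree.

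Cyp4b1 stood at 10.48, 11.34, 4.56 and 4.87 in M + LFD and at 5.79, 3.38, 5.74 and 5.37 in M + HFD. The other 4 groups lay between 3.44 and 6.66. Replicates 1 and 2 of M + LFD were above every other array, but 1 array of each male group was not well above background and the gene was not tested by diet in M. The plain difference was -2.74 with all arrays and 0.36 without the pair.

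Cyp3a13 stood at 12.08, 12.07, 8.66 and 9.95 in M + LFD and at 10.49, 9.79, 10.17 and 10.73 in M + HFD. The difference of -0.40 (SE 0.73) did not pass the threshold and became 0.99 without the pair. F(OVX) + LFD replicate 2 gave 11.90 and the other 3 arrays of its group 9.16 to 9.84, so a high value was not limited to M + LFD. The mean differences in F and F(OVX) were -0.16 (SE 0.30) and -0.15 (SE 0.51).

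Cyp2s1 was the steadiest of the P450 members that were measured on all arrays, at 12.22 to 14.01 with a within-group SD of 0.49. Its group means lay between 12.96 and 13.19. The differences by diet were -0.24 (SE 0.38) in M, 0.12 (SE 0.21) in F and 0.04 (SE 0.32) in F(OVX), each smaller than its standard error. M + LFD replicates 1 and 2 gave 13.77 and 13.75, against 12.48 and 12.78 in replicates 3 and 4. F(OVX) + LFD replicate 2 was higher still, at 14.01. Without the M + LFD pair the difference in M was 0.33 (SE 0.36).

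Cyp2e1, the azoxymethane-oxidising enzyme, tended to be high on arrays where fat cell genes were high, and no difference by diet was called. In M + LFD it stood at 3.56, 5.57, 5.30 and 9.60, and in M + HFD at 4.18, 5.96, 3.39 and 3.94. In F + LFD it stood at 6.81, 3.06, 6.98 and 8.88, and in F + HFD at 6.23, 5.35, 4.60 and 7.40. In F(OVX) + LFD it stood at 5.59, 8.35, 5.23 and 3.28, and in F(OVX) + HFD at 2.91, 5.32, 5.75 and 2.13. The differences between HFD and LFD means were -1.64, -0.53 and -1.58 in M, F and F(OVX), while the groups overlapped in each. The gene was well above background on 16 arrays. In M, where it was tested, the difference was -1.64 (SE 1.17, limma, adjusted p = 0.876; exact permutation p = 0.343). With M + LFD replicate 4 left out it was -0.44, with replicate 1 of that group left out it was -2.46, and in F it was 0.28 without F + LFD replicate 4. Without M + LFD replicates 1 and 2 it was -3.08 (SE 1.22, limma, adjusted p = 0.926), past the threshold with 2 arrays in that group. The second probe was well above background on 5 arrays and correlated with the first at r = 0.83.

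The 3 arrays with the highest Cyp2e1 each had the highest adipocyte mean of their group. M + LFD replicate 4, F + LFD replicate 4 and F(OVX) + LFD replicate 2, at 9.60, 8.88 and 8.35, gave Adipoq at 8.55, 8.69 and 7.18 and Cfd at 11.72, 10.67 and 10.08. In M + HFD Adipoq was well above background on 1 of 4 arrays. M + HFD replicate 2 went the other way, with the highest Cyp2e1 of its group (5.96) and the lowest adipocyte mean of the 24 arrays (4.93). The mean of the 9-gene adipocyte list ran from 5.73 to 8.21 in M + LFD, 4.93 to 6.07 in M + HFD, 5.68 to 8.30 in F + LFD, 6.48 to 8.03 in F + HFD, 5.49 to 7.76 in F(OVX) + LFD and 5.48 to 6.94 in F(OVX) + HFD. Between 3 and 8 of its genes were well above background on an array. As deviations from group means over 24 arrays, Cyp2e1 and the list gave r = 0.79 and rho = 0.72 (permutation test, 100000 resamples, p = 1e-05, the smallest they can give, and 9e-05; adjusted 4e-05 and 0.00036). Without the 2 arrays farthest from the median of the list r was 0.70 (permutation p = 0.0003). Within slides r was 0.61 in M (exact permutation p = 0.110, 8 arrays), 0.96 in F (exact permutation p = 0.000198, 8 arrays) and 0.78 in F(OVX) (exact permutation p = 0.0207, 8 arrays). The part of fat tissue in the Cyp2e1 differences was not tested. Genes most like Cyp2e1 were sought only among 11879 genes with a symbol and well above background on all 24 arrays. That search left out most of the adipocyte list, among them Adipoq (13 arrays), Cfd (17) and Retn (14). Within it Speer5-ps1 came first (r = 0.66), followed by St6galnac4 (0.62), Upp1 (0.61), Hmga1 (0.60) and Ppy (0.56).

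Between the sexes and between ovariectomized and intact females, averaged over the diets, no member was called among 7 tested, against 5.57% and 2.15% of 22383 genes. Cyp2c55 was higher in M than in F by 1.72 (SE 1.03, limma, adjusted p = 0.384; exact permutation within diets over 4900 assignments, p = 0.209). The difference was 3.40 on LFD and 0.05 on HFD, and without M + LFD replicates 1 and 2 the averaged difference was 0.51. Cyp4b1 gave 1.03 (SE 0.78), Cyp2d26 0.51 (SE 0.39) and Cyp3a13 0.50 (SE 0.43) in the same direction, and all 3 turned negative without the same pair (-0.52, -0.25 and -0.19). Cyp2e1 gave -0.98 in M and -1.34 in F(OVX) against F, with an SE of 0.91 for both. The ordering of the 6 group means of Cyp2c55 ran from 9.20 in F + HFD through 9.23 in F + LFD, 9.24 in M + HFD, 9.54 in F(OVX) + LFD and 10.82 in F(OVX) + HFD to 12.63 in M + LFD, with SDs of 1.04 to 3.31, so neighbours in this order did not differ beyond their spread.

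Beyond the 10 members, other P450 genes and genes of the Ahr pathway were counted from lists. The lists were chosen with earlier results of these data known, so their counts describe the listed genes and are not an independent test. In M, 16 of the 88 other listed genes tested were called, against 4.30% of all genes, 10 higher and 6 lower in M + HFD, and 10 of these 16 belonged to the Cyp1 to Cyp3 families (8 higher and 2 lower of 23 tested, median 0.27 against 0.01 over all genes). The Cyp2c cluster split. Cyp2c65 and Cyp2c66, close relatives of Cyp2c55, gave -3.98 (SE 1.42) and -3.73 (SE 1.41) in M + HFD against M + LFD, while Cyp2c68 gave 1.93 (SE 0.62) (limma, adjusted p = 0.800 for each). Cyp2c65 stood at 14.73, 14.55, 10.81 and 9.30 in M + LFD and at 7.15, 7.16, 11.31 and 7.86 in M + HFD. Cyp2c68 stood at 9.23, 8.08, 9.39 and 11.25 in M + LFD and at 12.25, 10.82, 11.21 and 11.39 in M + HFD. The same M + LFD arrays that were high for Cyp2c55 and Cyp2c65 were low for Cyp2c68. Of 9 other Cyp2c genes tested in M, 7 were called, 2 lower and 5 higher; the 4 not yet named, chosen after their values were seen, were Cyp2c29 (1.34), Cyp2c40 (1.88), Cyp2c67 (1.77) and Cyp2c69 (1.83). Cyp2c40, Cyp2c67, Cyp2c68 and Cyp2c69 are near-identical copies, as are Cyp2c65 and Cyp2c66, and their probes may read one another, so they do not count as independent genes.

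**Figure D4:**
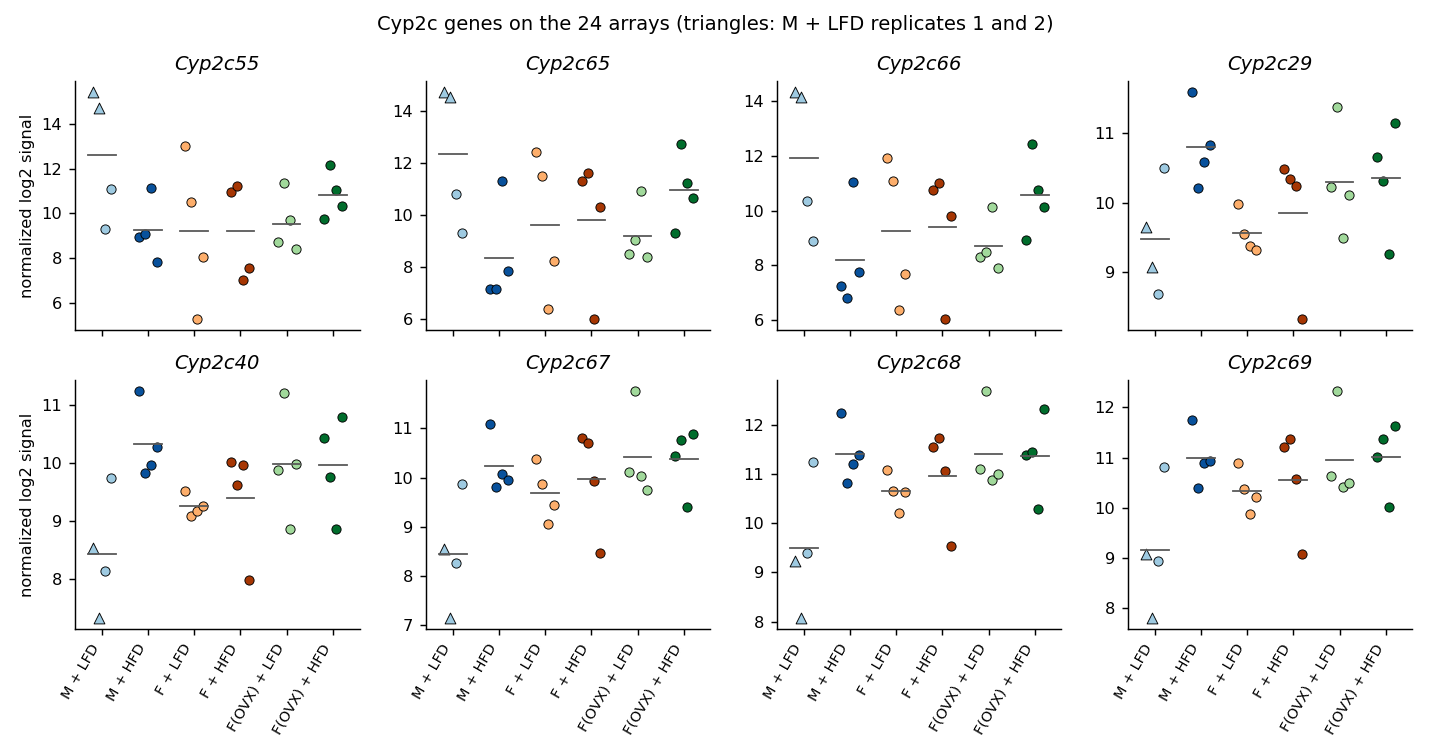
Normalized log2 signal (vertical axes, a scale of its own in each panel) of 8 Cyp2c genes on the 24 arrays by group; bars are group means and triangles are M + LFD replicates 1 and 2. The triangles are the highest points for Cyp2c55, Cyp2c65 and Cyp2c66 and lie low for Cyp2c68 and its relatives.

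Cyp2f2, a P450 best known from airway epithelium, was higher in M + HFD by 3.16 (SE 1.14). It stood at 5.26, 5.10, 7.23 and 10.15 in M + LFD and at 11.72, 10.37, 8.46 and 9.83 in M + HFD. Adh1, an alcohol dehydrogenase that also oxidises methylazoxymethanol, was higher by 1.96 (SE 0.79), and Aldh1a1, a retinal dehydrogenase, gave -2.27 (SE 0.83) (limma, adjusted p = 0.800 for both). Without M + LFD replicates 1 and 2, 2 of the 17 genes called (Cyp2c55 included) were called again in the same direction, Cyp2c40 at 1.38 and Cyp2d9 at 1.58, as were 220 of the 882 called among all genes. The other 15 of the 17 kept their sign but missed the threshold. Of the listed genes 9 were called without the pair, so 7 were called there alone. Among them were Cyp2e1 (-3.08), Cyp2d10 (1.33), Cyp2d34 (1.35) and Cyp2d12 (1.27), named after their values were seen. Whether probes of the Cyp2d genes read one another was not tested, so these do not count as independent genes. Single arrays mattered too. Leaving out M + LFD 1 or 2 or M + HFD 1 each ended the calls of Cyp2c65, Cyp2c66, Cyp2f2, Adh1 and Aldh1a1, leaving out M + HFD 2 those of all but Cyp2f2, and leaving out M + HFD 4 those of Cyp2c65, Cyp2c66 and Adh1. The call of Cyp2c68 held in all 8 cases.

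**Figure D5:**
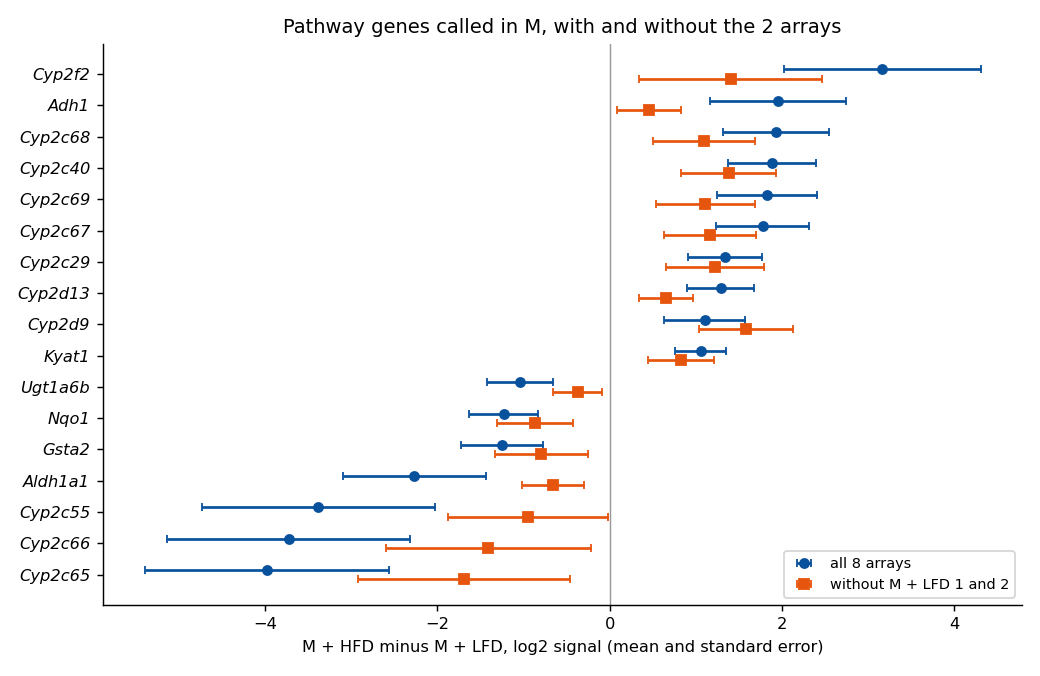
Difference in log2 signal between M + HFD and M + LFD (horizontal axis, mean and standard error from limma) for the 17 P450 and Ahr pathway genes called in M, with all 8 arrays (circles) and without M + LFD replicates 1 and 2 (squares). The squares lie nearer to 0 than the circles for all genes except Cyp2d9 (1.103 and 1.58).

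Among 12 Ahr target genes tested in M, 0 were called higher and 3 lower in M + HFD, against 4.30% of all genes in either direction. These were Gsta2, a glutathione transferase (-1.25), Nqo1, a quinone reductase (-1.23), and Ugt1a6b, a glucuronosyltransferase (-1.04). The median of the list was -0.21, against 0.01 over all genes tested. Nqo1 stood at 10.82, 9.86, 9.52 and 9.73 in M + LFD and at 7.74, 8.87, 9.37 and 9.03 in M + HFD, with no overlap. Groups did not overlap for 2.60% of all genes tested in M. All 3 missed the threshold without M + LFD replicates 1 and 2 (-0.79, -0.87 and -0.37). Tiparp, a direct Ahr target that was detected throughout, had group means of 8.94 to 9.14. Of 7 tested genes of the Ahr complex and its partners, 0 were called by diet in M, F or F(OVX). Of 8 tested genes of tryptophan and kynurenine metabolism, which yields Ahr ligands, Kyat1 was called in M, higher by 1.05. None of the 7 electron donors was called by diet in M, F or F(OVX). Over all genes tested, 4.30%, 1.20% and 2.19% were called in M, F and F(OVX). A count of 0 of 7 genes is near those shares.

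In F, 1 of 89 other listed genes was called, against 1.20% of all genes, the steroid-forming Cyp21a1 (-1.34). Cyp21a1 was tested because all 4 F + LFD arrays were well above background. In F + HFD only replicate 1 was (4.87), so the size of this difference rests on readings near the floor. With the replicate number as a block it was not called, nor without F + LFD 3 or 4 or F + HFD 2, 3 or 4. In F(OVX), 6 of 84 were called, against 2.19% of all genes. Cyp2c66 and Cyp2c65 were higher in F(OVX) + HFD by 1.86 (SE 0.73) and 1.77 (SE 0.77), the opposite direction to M. Leaving out F(OVX) + LFD 1, 2 or 4 or F(OVX) + HFD 2 or 3 ended both calls, and leaving out F(OVX) + HFD 4 that of Cyp2c65. The others were Gsta2 (-0.91), Tph1 (0.79), the serotonin-forming tryptophan hydroxylase, the thromboxane synthase Tbxas1 (-0.69) and the glucuronosyltransferase Ugt1a6a (0.65), of which Tbxas1 lost its call without F(OVX) + HFD 2 and Ugt1a6a without F(OVX) + LFD 3 or 4 or F(OVX) + HFD 2 or 4. Gsta2 was the 1 listed gene called lower on HFD in both M and F(OVX). The effects of diet in M and F(OVX) differed by -5.75 (SE 2.08) for Cyp2c65 and by -5.59 (SE 1.98) for Cyp2c66 (limma, adjusted p = 0.562 for both). In all, 20 of 90 other listed genes differed in their diet effect between M and F(OVX), against 6.16% of all genes, among them Cyp2f2 (4.11), Aldh1a1 (-2.74), the xenobiotic receptor Nr1i3 (2.61) and Adh1 (2.27). With the distal Hox mean as a covariate all 6 calls were lost, at -0.65 for Cyp2c65, -0.75 for Cyp2c66, -0.058 for Cyp2f2, -0.89 for Aldh1a1, 1.99 for Nr1i3 and 0.21 for Adh1. That mean was higher on HFD in M (8.82 against 5.26) and lower on HFD in F(OVX) (7.41 against 8.66). This fit therefore cannot tell diet and Hox level apart. Without M + LFD replicates 1 and 2, Nr1i3 kept its call (2.51) and the other 5 did not. Nr1i3 was, however, well above background on all 4 arrays of a group only in F. In each M and F(OVX) group some arrays were not, with 2.05 in M + LFD replicate 3. Its difference thus rests partly on readings near the floor of the array. Between M and F 8 of 90 differed, against 2.95% of all genes, led by Cyp2f2 (3.61), Aldh1a1 (-2.12), Adh1 (1.88), Cyp2c40 (1.75), Cyp2d9 (1.73) and Cyp2d34 (1.38). Between F(OVX) and F it was 1, against 1.52% of all genes, the oxysterol receptor Nr1h3 (-0.69). Leaving out single arrays ended the calls named for M against F in 2 (Cyp2d9) to 10 (Cyp2d34) of 16 cases and that of Nr1h3 in 8.

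Averaged over diets, 6 of 90 other listed genes were called higher in M than in F and 0 lower, against 5.57% of all genes called in either direction. They were Tph1 (1.22), the clock factor and Arnt relative Arntl (0.91), the steroid-forming Cyp17a1 (0.83), the vitamin D hydroxylase Cyp2r1 (0.69), the growth factor Ereg (0.68) and Cyp4f16 (0.63). None had an adjusted p under 0.05 in limma, the lowest being 0.0635 for Cyp4f16. In F(OVX) against F the prostacyclin synthase Ptgis was called (-0.73). Leaving out F + LFD 3 ended the calls of Arntl, Ereg, Cyp4f16 and Ptgis, M + LFD 1 those of Arntl and Ereg, M + LFD 2 that of Cyp4f16, F + HFD 3 that of Ereg, and M + LFD 4, M + HFD 2 or 3, F + LFD 4 or F + HFD 4 that of Arntl; Tph1, Cyp17a1 and Cyp2r1 kept theirs in all 16.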

How the data were processed

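The intensities used here are the processed signals as deposited, 1 Cy3 value per spot, which the authors made with Agilent Feature Extraction 11.0.1.1 (per the file headers, background subtracted and spatial trend removed within the array, nothing between arrays). Outlier spots were left out, log2 values were quantile normalized over the 24 arrays, spots of a probe were averaged, and the brightest probe stood for a gene. RefSeq accessions named 32994 of 56605 probes, for 22911 symbols (GRCm38.p6); others kept the name in the file. A gene was tested where 1 of the groups compared had it well above background on all 4 arrays (in the fit of 24 arrays, any of the 6 groups). limma 3.58.1 in R 4.3.3 was used on 8 arrays for each diet comparison and on all 24 for differences of diet effects and for M or F(OVX) against F. Calls used a fold of 1.5 and an unadjusted p of 0.05, as the methods do, and Benjamini-Hochberg values stand beside them. The scripts were tested on simulated data. Samples were grouped by their labels; nothing says that each is 1 animal, so p-values measure the spread between these samples. Only 4 arrays per group limit the precision.

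The members and gene lists were chosen with earlier results of these data known. Named beside the members were, per comparison, at most the 6 listed genes with the largest called difference, and the 5 genes most correlated with Cyp2c55 and with Cyp2e1 (those of Cyp1a1, never above background, are left out). Deviations of same-numbered arrays correlated at 0.23 to 0.51 in F, -0.22 to 0.06 in M and -0.08 to 0.31 in F(OVX), so the number, which is also the column on the slide, was taken to pair arrays in F only. Alternatives changed the test, scaling, background correction, filter, probe summary, outlier spots, block, samples in the fit and arrays, and added the distal Hox mean as a covariate.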

Additional observations from a re-analysis of the deposited data

Results flagged for a closer look

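In 6 of 60 groups of 4 arrays 1 array stood far from the other 3, by the ratio of its gap to the range of the group; chance alone marks about 1 in 20 groups. Cyp1a1 gave 2.40 in M + LFD replicate 1 and 3.001 in F(OVX) + LFD replicate 1, both not well above background. Cyp1b1 gave 5.08 in F + HFD replicate 3 and 5.52 in F(OVX) + LFD replicate 4, where the other arrays of the group were not well above background. Cyp4b1 was low in F + LFD replicate 4, at 4.15 against 5.60 to 5.89. Cyp3a13 was high in F + LFD replicate 1, at 10.92 against 9.65 to 9.86.

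The effect of diet differed between M and F(OVX) by -4.66 for Cyp2c55 and by -3.30 for Cyp4b1 (limma, adjusted p = 0.641 and 0.664). M and F(OVX) lay on different slides. Both calls were lost without M + LFD replicates 1 and 2, whose distal Hox means were 2.07 and 3.84, and also without some other single arrays. The part of the stretch of colon sampled was not tested.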

How the results depend on the processing

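Of 653 values of tested genes under settings other than single arrays left out, 21 changed direction, 89 lost a call and 4 gained one; of 816 with single arrays left out, 35 changed direction. Of the members' values without a test, 8 of 83 and 36 of 200 changed sign. The causes were not tested. In M, the call of Cyp2c55 was lost with the methods' t-test, without a filter on dim probes, with the replicate block, with the Hox covariate and without M + LFD replicates 1 and 2. Cyp2c55 gained a call in F(OVX) with the replicate block (1.28), Cyp2d26 in M with 1 fit of all 24 arrays (-1.19), and Cyp2e1 in M with the Hox covariate (-3.70) and without M + LFD replicates 1 and 2 (-3.08).

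The number of genes called by diet in M (882), F (264) and F(OVX) (421) became 489, 125 and 209 with the methods' t-test (0 after Benjamini-Hochberg in each) and 567, 80 and 269 with normexp. Unadjusted p was under 0.05 for 1251, 643 and 709 genes with limma. Normexp gave 152 for the diet effect in F(OVX) against F (340), 495 for M against F (1246) and 115 for F(OVX) against F (481). Without a filter the counts were 627 in F, 843 in F(OVX), 1056, 827, 2309 and 1054 for the diet effects in M and in F(OVX) against F, for M against F and for F(OVX) against F. Probes well above background on all 24 arrays gave 108 in F, and 187, 677 and 134 for the last 3. The replicate block gave 586 in F, 1150 for the diet effect in M against F (661) and 548 in F(OVX) against F; with it the adjusted p in M against F was 0.0264 for Tph1 and 0.0417 for Cyp4f16. With 1 fit of all arrays F(OVX) had 251. With the Hox covariate the counts were 417 in M, 606 in F, 797 in F(OVX), 328 for the diet effect in M against F and 560 for that in M against F(OVX) (1378). The share of higher calls in F was 33.3%, 25.2% with the 75th percentile and 21.3% with normexp.

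Leaving out 1 array gave 585 to 1510 genes in M, 163 to 733 in F and 218 to 708 in F(OVX). For the diet effects it gave 427 to 1235 (M against F), 910 to 1936 (M against F(OVX)) and 197 to 549 (F(OVX) against F), and averaged over diets 949 to 1694 (M against F) and 334 to 688 (F(OVX) against F).

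The directions that changed among tested genes were of uncalled values, except Adh1 and Cyp2f2. Ahr in F became 0.028 with the 75th percentile and 0.012 with normexp, and Ahr in F(OVX) against F 0.027 with normexp. Cyp2d26 in F became -0.0097 with normexp and -0.21 with the mean of its probes. With the Hox covariate, Adh1 (-0.078), Cyp2d26 (0.45), Cyp2s1 (0.22) and Cyp3a13 (0.99) turned in M, Cyp2c55 in F (0.96), Ahr (0.12) and Cyp3a13 (0.57) in F(OVX), Cyp2f2 in the diet effect of M against F(OVX) (-0.058) and Ahr in M against F (0.017). Without M + LFD replicates 1 and 2, Cyp2d26 (0.32), Cyp2s1 (0.33) and Cyp3a13 (0.99) turned in M, as did the untested Cyp4b1 (0.36), Cyp1b1 (-0.07) and Cyp1a1 (0.03), and Cyp2d26 (-0.25), Cyp2s1 (-0.23), Cyp3a13 (-0.19) and Cyp4b1 (-0.52) in M against F. The correlations of Cyp1a1 with Ahrr and Cyp1b1, -0.14 and -0.24, were 0.44 and 0.57 with the 75th percentile.

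With 1 array left out, the tested differences that turned ranged in M from -1.07 to 0.067 (Cyp3a13) and -0.48 to 0.0061 (Cyp2s1). In F they ranged from -0.15 to 0.16 (Ahr), -1.34 to 1.24 (Cyp2c55), -0.20 to 0.30 (Cyp2d26), -0.34 to 0.12 (Cyp3a13) and -0.25 to 0.33 (Cyp4b1). In F(OVX) they ranged from -0.22 to 0.018 (Ahr), -0.16 to 0.34 (Cyp2s1) and -0.48 to 0.43 (Cyp3a13). For M against F, Cyp2s1 ranged from -0.047 to 0.17, and for F(OVX) against F, Ahr from -0.088 to 0.056, Cyp2s1 from -0.068 to 0.19 and Cyp3a13 from -0.19 to 0.26. Among the untested members that turned, the widest ranges over all settings were those of Cyp4b1 in M (-3.83 to 0.36), Cyp2e1 in F (-1.66 to 0.28), and Cyp1b1 in F(OVX) (-0.07 to 1.70) and in M (-0.13 to 1.49). The correlation of Cyp2c55 with the Hox list ranged from -0.75 to -0.57 and that of Cyp2e1 with the adipocyte list from 0.73 to 0.88.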
